A study of Mus musculus with 11 samples.

Results

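Fibronectin (Fn1), Thy1, the PDGF receptors Pdgfra and Pdgfrb, vimentin (Vim), decorin (Dcn), lumican (Lum), periostin (Postn), Twist1 and Prrx1 are genes by which fibroblasts and other mesenchymal cells are commonly recognised. These 10 genes were chosen by name, and each has a row in both deposited tables, among 31518 genes listed for mouse embryonic stem cells (mESCs) and 29450 listed for mouse embryonic fibroblasts (MEFs). Poly(A)+ RNA was sequenced from 11 libraries: 2 WT and 3 Atxn7l3-/- mESC libraries, and 3 WT and 3 Atxn7l3-/- MEF libraries. Atxn7l3 encodes a subunit that activates the deubiquitylation module of the SAGA coactivator, which removes ubiquitin from histone H2B. All animals were of a mixed DBA/2 and C57BL/6 background, WT means the genotype Atxn7l3+/+, and the mutant allele was inherited through the germline, by the study's description in every cell. Each mESC line came from its own blastocyst. The lines were passaged on feeder cells before the feeders were removed, and were kept in medium with 15% FCS, LIF, 1 µM of the MEK inhibitor PD0325901 and 3 µM of CH99021. Each MEF culture came from its own E10.5 embryo, without the head and the gastrointestinal tract, and grew in DMEM with 10% FCS. No group received any other treatment. The study described round cells in the Atxn7l3-/- MEF cultures and embryos of a milder and a more severe class, and the class behind each culture is not given in the sources used here.

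Fibroblasts build and remodel the extracellular matrix. Fibronectin and periostin are matrix glycoproteins that cells hold through integrins, decorin and lumican are small leucine-rich proteoglycans that bind collagen fibrils, and the 2 PDGF receptors are the tyrosine kinases through which mesenchymal progenitors and perivascular cells receive growth signals. Vimentin is the intermediate filament of mesenchymal cells, Thy1 is a surface glycoprotein used to sort fibroblasts, and Twist1 and Prrx1 are transcription factors of embryonic mesenchyme, Twist1 also being known from epithelial-mesenchymal transition.

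Promoter windows are shown for members whose level differed between the MEF genotypes in their libraries' values or in a test, so that the sequence at their start can be read beside the results. RefSeq windows from 250 bases before to 50 bases after a start were found for 5 of the 10 genes, on GRCm38.p6, the assembly of mm10. Capitals mark TATAAA, the letters of a TATA box, and CANNTG, the E-box letters to which basic helix-loop-helix factors such as Twist1 bind, on either strand. The Vim window lies at chr2:13574061-13574360 on the plus strand, the Postn window, of the RefSeq start nearest the deposited one, at chr3:54360857-54361156 (plus), the Pdgfra window at chr5:75152001-75152300 (plus) and the Prrx1 window at chr1:163313601-163313900 (minus).
Vim: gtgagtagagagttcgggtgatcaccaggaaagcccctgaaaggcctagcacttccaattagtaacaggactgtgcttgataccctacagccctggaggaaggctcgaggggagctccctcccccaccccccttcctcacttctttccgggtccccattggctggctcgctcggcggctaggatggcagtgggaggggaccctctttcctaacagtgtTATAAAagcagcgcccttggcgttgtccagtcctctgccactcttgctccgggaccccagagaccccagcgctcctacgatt
Postn: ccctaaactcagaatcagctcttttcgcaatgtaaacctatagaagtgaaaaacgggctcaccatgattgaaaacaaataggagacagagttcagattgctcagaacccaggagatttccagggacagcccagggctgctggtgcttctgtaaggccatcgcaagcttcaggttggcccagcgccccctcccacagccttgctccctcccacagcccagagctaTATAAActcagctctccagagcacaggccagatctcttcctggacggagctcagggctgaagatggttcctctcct
Pdgfra: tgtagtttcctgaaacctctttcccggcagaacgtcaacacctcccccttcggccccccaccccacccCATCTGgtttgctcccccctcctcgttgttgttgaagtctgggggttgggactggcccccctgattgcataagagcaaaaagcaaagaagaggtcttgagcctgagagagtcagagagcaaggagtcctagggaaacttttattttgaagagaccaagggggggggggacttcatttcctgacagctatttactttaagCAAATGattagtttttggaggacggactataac
Prrx1: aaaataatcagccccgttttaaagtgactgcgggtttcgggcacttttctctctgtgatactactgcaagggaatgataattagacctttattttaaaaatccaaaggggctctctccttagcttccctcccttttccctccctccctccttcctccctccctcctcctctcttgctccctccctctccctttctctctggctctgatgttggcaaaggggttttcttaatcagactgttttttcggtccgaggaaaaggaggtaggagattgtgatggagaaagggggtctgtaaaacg

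TATAAA began at position -32 in Vim and -26 in Postn, counted from the start, and a Twist1 window at chr12:33957421-33957720 (plus) held it at -126. Of 32851 RefSeq windows of this length, 13.6% held TATAAA. The Pdgfra window held CATCTG at -182 and CAAATG at 18 bases after the start, where 72.3% of all windows held CANNTG. The Prrx1 window held neither TATAAA nor CANNTG, and held CATTCC, the letters of a TEAD site, on its opposite strand at -180 (14.7% of all windows).

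Library totals ranged from 34515342 to 49602605 counts, and levels are given as counts-per-million (CPM) normalized by TMM over the 11 libraries. The floor was set at 3 counts, or 0.0605 to 0.0869 CPM, a limit for counting error only. Atxn7l3 itself stood at 196 and 202 CPM in the WT and at 3.33, 1.60 and 0.831 CPM in the Atxn7l3-/- mESC libraries (log2 fold change -6.65 with a standard error of 0.53, edgeR adjusted p = 0.0211). In MEFs it stood at 86.4, 117 and 104 CPM in WT libraries and at 56.4, 55.3 and 73.2 CPM in libraries labelled Atxn7l3-/-, or 60.3% of the mean in WT (edgeR log2 fold change -0.74 with a standard error of 0.21, adjusted p = 0.0715). In mESCs the Atxn7l3-/- mean was 0.00964 of the WT mean, and the cause of this difference between the cell types was not tested. The tables hold 1 value per gene, so that reads inside and outside the deleted part cannot be told apart, and the genotype labels of the MEF libraries were not checked further. The paper reports that ATXN7L3 protein could not be detected in extracts of its Atxn7l3-/- MEFs, without naming the sequenced cultures. Replicate 3 of the WT MEFs and replicates 1 and 2 of the Atxn7l3-/- mESCs had few Y-linked counts (0.73 to 7.67 CPM, against 169 to 485 CPM in the other libraries). The summed level of the pluripotency markers, 8 genes in mESCs and 6 of them listed for MEFs, was 4372 to 5140 CPM in mESC libraries and 43.9 to 99.4 CPM in MEF libraries. Same-numbered WT and Atxn7l3-/- MEF libraries deviated together from their group means, so MEF values are also given, where a call differs, with a term for the replicate number in the fit (the replicate block). All adjusted p-values are from edgeR's quasi-likelihood fits unless DESeq2 is named.

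All 10 genes were higher in WT MEFs than in WT mESCs, and the groups of libraries did not overlap for any of them (34.7% of the 19312 genes tested in 1 fit of all libraries were higher without overlap). A gene is named as called where its adjusted p, over all genes tested, was 0.05 or less. All 10 were called higher, against 26.8% of all genes called higher and 27.1% called lower. Fn1 had the smallest ratio, 6.88-fold, and Pdgfra followed with 15.3-fold. Twist1 (56.0-fold), Pdgfrb (63.0-fold), Thy1 (65.1-fold) and Vim (85.1-fold) formed the middle, and Prrx1, Postn and Dcn were 1511-fold, 1512-fold and 3896-fold higher in WT MEFs. The log2 fold changes ran from 2.78 for Fn1 (standard error 0.47, edgeR adjusted p = 0.000709) to 13.28 for Lum (standard error 3.78, edgeR adjusted p = 0.0127), with Dcn at 11.78 (standard error 1.89, edgeR adjusted p = 0.000543). Lum had 2 counts in all in the WT mESCs and was 11055-fold higher in WT MEFs by mean CPM, as the other ratios were taken. From counts pooled over libraries it was 9080-fold higher, with a counting interval of 2513 to 74984. Of the 21945 pooled WT MEF counts, 21668 were in replicate 2, and the interval does not cover the spread between libraries. With either WT mESC library left out, the log2 fold changes stayed positive for all 10, but 1 remaining WT mESC library is too few to judge the calls. Without WT MEF replicate 2 the log2 fold changes of Lum (7.04), Postn (8.64), Dcn (9.56) and Pdgfra (2.11) were smaller than with it (13.28, 10.57, 11.78 and 3.93). All 10 genes were still called in that fit, where 5113 of all 19183 genes were called higher. Without WT mESC replicate 1 the log2 fold change of Dcn was 15.58, set against a library with no count.

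Levels can be compared between genes only per length, and for this the deposited normalized reads per kb of median transcript length were used. In WT MEFs the order of the mean reads per kb was Fn1 (170973), Vim (120795), Postn (24883), Thy1 (19352), Prrx1 (3868), Lum (3484), Dcn (3173), Pdgfrb (2424), Twist1 (1266) and Pdgfra (979). Among neighbours in that order, the 3 libraries separated Vim from Postn and Thy1 from Prrx1, and all other neighbours overlapped. In the Atxn7l3-/- MEFs the order was Fn1 (260030), Vim (52606), Dcn (35875), Thy1 (10754), Pdgfra (3421), Prrx1 (961), Postn (869), Twist1 (846), Pdgfrb (720) and Lum (103), with Fn1 and Vim, Dcn and Thy1, and Thy1 and Pdgfra separated. Postn and Thy1 were above Dcn in each of the 3 WT libraries and below it in each of the 3 Atxn7l3-/- libraries. The places of Lum and Dcn in the WT order rested on replicate 2, where Lum held 10359 and Dcn 8147 reads per kb, while Lum held 60.6 and 32.4 and Dcn 829 and 544 reads per kb in replicates 1 and 3. The place of Postn above Thy1 rested on replicate 2 as well (61466 against 20660 reads per kb). In replicates 1 and 3 Postn held 5722 and 7462 and Thy1 10101 and 27294 reads per kb. In WT mESCs Fn1 (27908 reads per kb) was far above Vim (1594) and Thy1 (335), followed by Pdgfra (72.6), Pdgfrb (43.5), Twist1 (25.5), Postn (18.5), Prrx1 (2.86), Dcn (0.933) and Lum (0.354). Neighbours overlapped there only for Twist1 and Postn, Prrx1 and Dcn, and Dcn and Lum. In the Atxn7l3-/- mESCs the order kept Fn1 (54081), Vim (1348) and Thy1 (422) at its head, and Postn (175) came next, ahead of Pdgfra (72.5), Twist1 (64.8), Pdgfrb (46.4), Prrx1 (22.7), Lum (8.50) and Dcn (4.05). The median transcript length used for Thy1 was 572.5 bases, the shortest of the 10, which raises its value per kb.

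**Figure D1:**
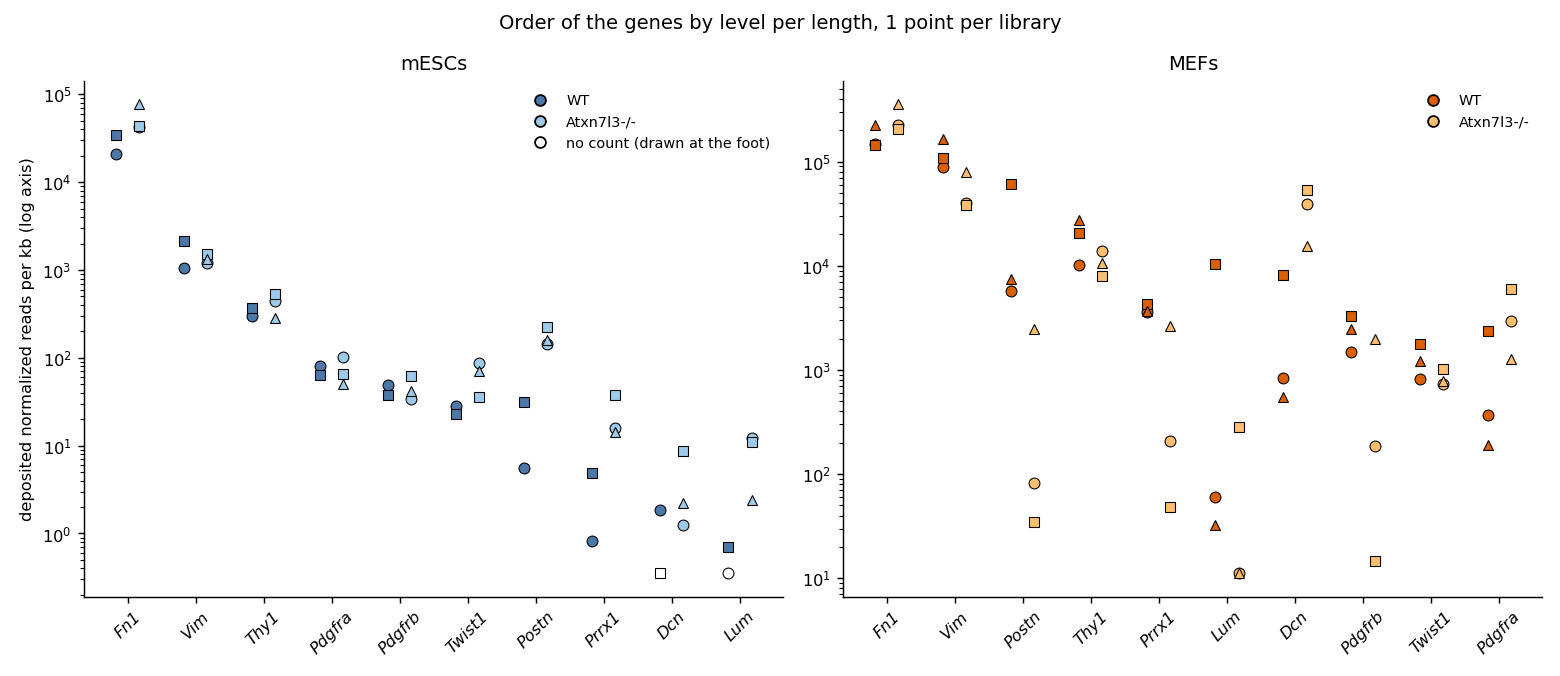
Deposited normalized reads per kb of median transcript length (log axis) of the 10 genes in mESCs (left) and MEFs (right), with genes ordered by the WT mean and 1 point per library, in separate colours for WT and Atxn7l3-/-. Fn1 leads in both cell types, and the Atxn7l3-/- MEF mean of Dcn is 35875, against 3173 in WT.

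Together the 10 genes took 1.5% to 2.65% of all counts in MEF libraries and 0.162% to 0.571% in mESC libraries. Fn1 made up 96.5% to 98.7% of that share in mESCs and 49.4% to 84.9% in MEFs. Without Fn1, the rest took 0.440%, 1.01% and 0.687% of counts in the WT MEF libraries. In the Atxn7l3-/- MEF libraries they took 0.323%, 0.359% and 0.400%, all below every WT library. Vim alone took 0.309%, 0.361% and 0.523% of counts in the WT and 0.126%, 0.114% and 0.247% in the Atxn7l3-/- MEF libraries. The genes of that rest did not all fall together, since fitted log2 fold changes were positive for Dcn and Pdgfra.

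In MEFs, the Atxn7l3-/- libraries lay above all WT libraries for Dcn and below all of them for Vim, Postn and Prrx1. Across all genes, 20.1% were higher and 19.7% lower without overlap. None of the 10 was called (edgeR adjusted p from 0.0936 for Dcn to 0.409 for Pdgfrb), against 9.41% of all 15958 genes tested, 5.01% higher and 4.39% lower. Unadjusted p was under 0.05 for 3 of the 10 (Dcn, Vim and Postn), against 32.4% of all genes, and DESeq2 called the same 3 of 9 with an adjusted p, against 20.9% of all genes. Fitted log2 fold changes were negative for 7 genes and positive for Dcn, Pdgfra and Fn1, with a median of -1.04 beside -0.06 over all genes. With the replicate block, Dcn and Pdgfra were called higher and none lower, against 5.50% of all genes called higher and 8.49% called lower. In these bulk samples, fewer cells of a type and less RNA per cell cannot be told apart. P-values measure the spread between these cultures, 1 per embryo.

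In mESCs 5 of the genes, Fn1, Postn, Twist1, Prrx1 and Lum, were higher in all 3 Atxn7l3-/- libraries than in both WT libraries and none was lower without overlap. Across all 17800 genes tested, 23.0% were higher and 26.7% lower without overlap. Dcn did not pass the filter on low counts, so that 9 of the 10 genes were tested. Postn rose and was the 1 gene called, against 6.96% of all genes, 3.08% higher and 3.88% lower. Unadjusted p was under 0.05 for 5 of the 9, Fn1, Postn, Twist1, Prrx1 and Lum, against 29.8% of all genes. Postn, Prrx1 and Lum were called higher with the replicate block (4.04% of all genes), with the block and a GC correction (3.06%) and by DESeq2 (9.29%), and these 3 and Fn1 without a filter (4.47%). Same-numbered mESC libraries did not deviate together (r of 0.008 and -0.172 across genes), and Atxn7l3-/- replicate 3 had no WT partner. The block thus followed no known pairing there. With Y-linked counts as a factor, an alternative chosen after seeing the data, Fn1 was called in place of Postn (4.49% of all genes called higher). That fit sets Atxn7l3-/- replicate 3 alone against WT, since the other Atxn7l3-/- libraries had few Y-linked counts. The fitted log2 fold changes were positive for 8 of 9, with a median of 0.99 beside 0.04 over all genes. Vim was the exception, and Pdgfra, near no change, turned slightly negative with upper-quartile scaling (-0.01).

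**Figure D2:**
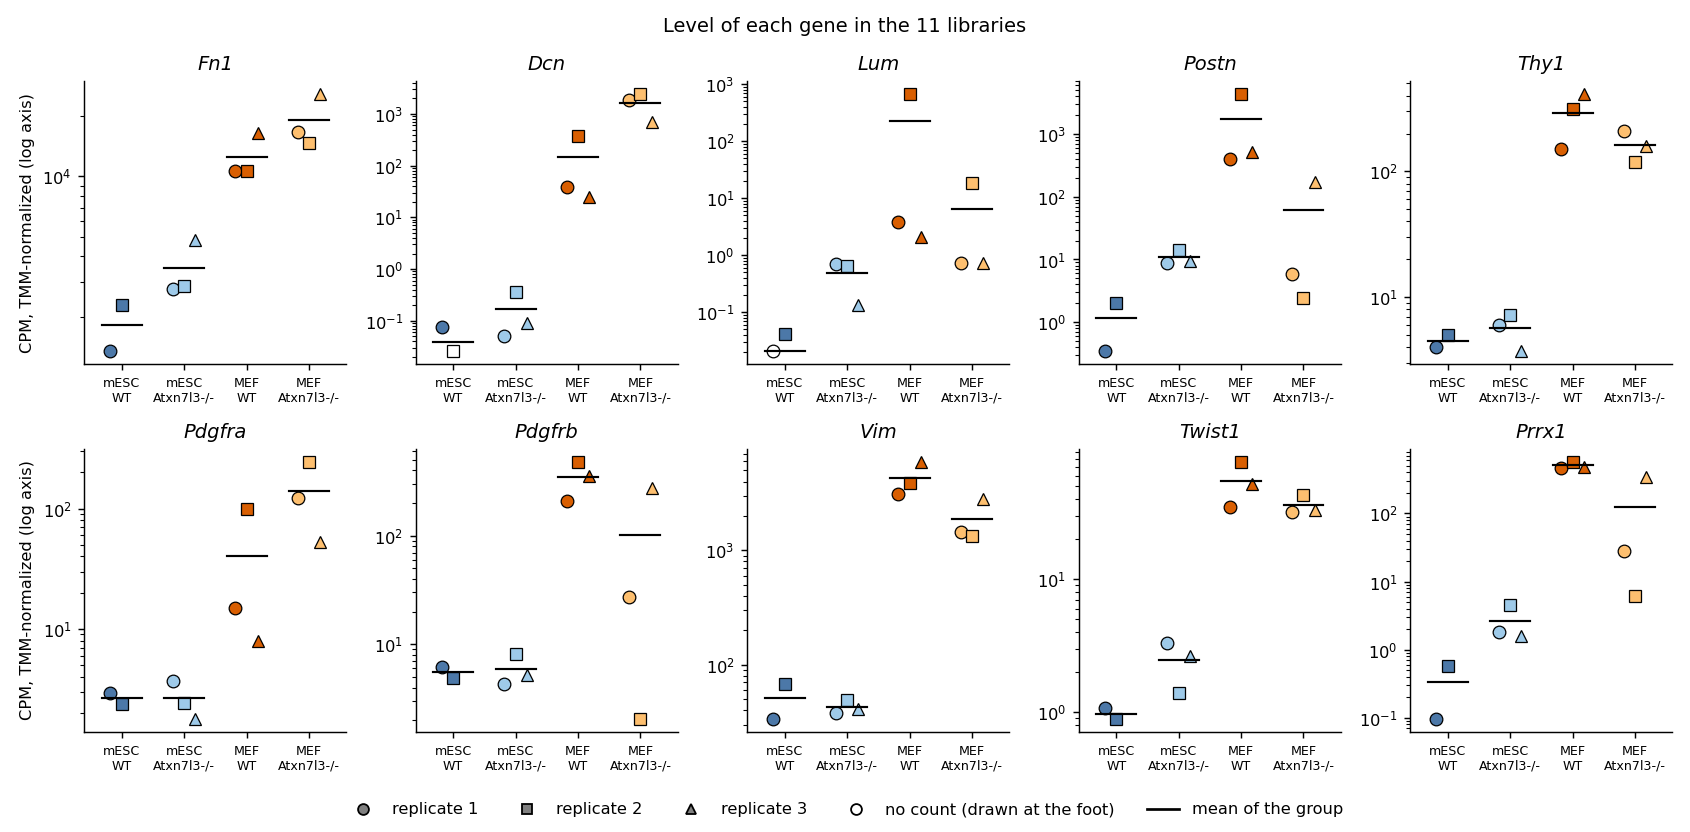
Level of each of the 10 genes in CPM (log axis, 1 panel per gene) in every library of WT and Atxn7l3-/- mESCs and MEFs. Circles, squares and triangles are replicates 1, 2 and 3, the line is the group mean, and an open marker at the foot of a panel is a library with no count (Dcn in WT mESC replicate 2 and Lum in WT mESC replicate 1). Prrx1, Pdgfrb and Postn show the Atxn7l3-/- MEF replicate 3 far above replicates 1 and 2.

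The libraries within a group differed by more for some genes than the genotypes did. WT MEF replicate 2 stood above the mean of the other WT MEF libraries by 226-fold for Lum, 12-fold for Dcn, 9.43-fold for Postn and 8.63-fold for Pdgfra. Among the Atxn7l3-/- MEFs, replicate 3 stood above the mean of replicates 1 and 2 by 41.6-fold for Postn, 20.0-fold for Prrx1 and 19.0-fold for Pdgfrb. These libraries are named wherever a call rests on them.

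Fn1 (ENSMUSG00000026193, chromosome 1, 71585520 to 71653200, minus strand) encodes fibronectin, the glycoprotein that cells assemble into pericellular fibrils. Its level was 10667, 10579 and 16425 CPM in the WT MEFs and 16614, 14682 and 25704 CPM in the Atxn7l3-/- MEFs. The lowest Atxn7l3-/- library lay below the highest WT library, and the groups overlapped. The mean was 12557 ± 3350 CPM (SD, n = 3) in WT and 19000 ± 5886 CPM (SD, n = 3) in Atxn7l3-/- MEFs, and the log2 fold change was 0.59 (standard error 0.47, edgeR adjusted p = 0.405). In mESCs Fn1 was already abundant, at 1351 and 2297 CPM in WT and 2744, 2863 and 4855 CPM in Atxn7l3-/- libraries. The mESC groups did not overlap, with an estimated log2 difference of 0.99 (standard error 0.36, edgeR adjusted p = 0.118), and the Atxn7l3-/- mESC mean reached 27.8% of the WT MEF mean. With Y-linked counts as a factor, an alternative chosen after seeing the data, the change in mESCs was called (log2 fold change 1.49, edgeR adjusted p = 0.0424). That estimate sets Atxn7l3-/- replicate 3 alone against WT, since the other Atxn7l3-/- mESC libraries had few Y-linked counts. An antisense transcript overlaps Fn1, and the strand setting of the counting is not given in the sources used here.

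The partners of fibronectin and periostin, 12 integrins, syndecans and matricellular genes, were listed separately. In MEFs all 12 were tested, with 1 called higher and 1 called lower and a median log2 fold change of -1.11. Sdc4, a syndecan that acts with integrins as a fibronectin receptor, rose from 243 ± 72.2 to 1542 ± 268 CPM (SD, n = 3 each, edgeR adjusted p = 0.0119), while Itga8, an integrin subunit of mesenchymal cells that also binds fibronectin, fell from 72.9 ± 21.8 to 3.40 ± 1.96 CPM (SD, n = 3 each, edgeR adjusted p = 0.0138). In mESCs 11 were tested, 2 were called higher and none lower (median 0.61), with Sdc4 at a log2 fold change of 1.62 (edgeR adjusted p = 0.0353) and Cyr61, a secreted integrin ligand, at 1.34 (edgeR adjusted p = 0.0478). Sdc4 was thus called higher in both cell types.

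Postn (ENSMUSG00000027750, chromosome 3, 54361109 to 54391037, plus strand) encodes periostin, a matricellular protein that binds integrins and collagen. WT MEFs held 401, 4372 and 527 CPM, and the libraries labelled Atxn7l3-/- held 5.93, 2.43 and 173.8 CPM. Every Atxn7l3-/- MEF library was below every WT library, and replicates 1 and 2 stood at 0.336% and 0.137% of the WT mean while replicate 3 stood at 9.84%. The means were 1767 ± 2257 CPM (SD, n = 3) and 60.7 ± 98.0 CPM (SD, n = 3), and the log2 fold change was -4.83 (standard error 1.89, edgeR adjusted p = 0.135). DESeq2 gave -4.84 (adjusted p = 0.0282), and edgeR without Atxn7l3-/- replicate 3 gave -8.73 (adjusted p = 0.0354), both of them calls. Without WT replicate 2 the value was -2.90 (edgeR adjusted p = 0.288).

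In mESCs Postn lay in the other direction, at 0.343 and 1.99 CPM in WT and 8.95, 14.2 and 9.59 CPM in Atxn7l3-/- libraries. The groups did not overlap, and the lowest Atxn7l3-/- library stood well above the higher WT library. Postn rose by 3.28 on the log2 scale (standard error 0.73, edgeR adjusted p = 0.0420), to a mean of 10.9 ± 2.85 CPM (SD, n = 3), which is 0.617% of the WT MEF mean. Without WT replicate 1 or WT replicate 2 the log2 fold change stayed positive, but 1 remaining WT library is too few to judge the call. Without Atxn7l3-/- replicate 1 the call was lost (edgeR adjusted p = 0.109), in a fit that called 0 of all 17530 genes higher and 3 lower. Without Atxn7l3-/- replicate 2 it was lost (edgeR adjusted p = 0.0593), while 1061 of all 17495 genes were called higher and 1181 lower. The call held without Atxn7l3-/- replicate 3 (edgeR adjusted p = 0.0427). It was also lost with Y-linked counts as a factor (log2 fold change 3.13, edgeR adjusted p = 0.0540). WT mESC replicate 1 had the lowest Postn level of all libraries and the lowest Fn1 level.

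Dcn (ENSMUSG00000019929, chromosome 10, 97479609 to 97518143, plus strand) encodes decorin, which binds collagen fibrils and TGF-beta. It stood at 38.2, 382 and 25.3 CPM in the WT MEFs and at 1829, 2439 and 710 CPM in the Atxn7l3-/- MEFs. The lowest Atxn7l3-/- library was above the highest WT library, which was replicate 2. The means were 148 ± 202 CPM (SD, n = 3) and 1659 ± 877 CPM (SD, n = 3), a ratio of 11.2. The log2 fold change was 3.47 (standard error 1.13, edgeR adjusted p = 0.0936) without and 4.38 (standard error 0.69, edgeR adjusted p = 0.0249) with the replicate block. It was also called in 1 fit of all 11 libraries (3.48, edgeR adjusted p = 0.0358), by DESeq2 (3.50, adjusted p = 0.00303) and without WT replicate 2 (5.70, edgeR adjusted p = 0.0262). With the block and a correction for GC content the value was 3.97 (edgeR adjusted p = 0.0550) and the call was lost. In mESCs Dcn was near the floor, with 4 and 0 counts in the WT libraries (0.0762 and 0 CPM) and 2, 17 and 4 counts in the Atxn7l3-/- libraries (0.0513, 0.364 and 0.0898 CPM). The groups overlapped, and most of the Atxn7l3-/- counts were in replicate 2.

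Lum (ENSMUSG00000036446, chromosome 10, 97565128 to 97572703, plus strand) encodes lumican, a keratan sulphate proteoglycan of the same family, and begins 46985 bases beyond the end of Dcn on the same strand. It stood at 3.89, 676 and 2.09 CPM in the WT MEFs and at 0.742, 18.1 and 0.717 CPM in the Atxn7l3-/- MEFs. The groups overlapped, because replicate 2 was the highest library in both. The log2 fold change was -5.12 (standard error 2.5, edgeR adjusted p = 0.202), -3.15 with the block (edgeR adjusted p = 0.0648), and 1.12 (edgeR adjusted p = 0.644) without WT replicate 2, in a fit that keeps Atxn7l3-/- replicate 2. In each same-numbered pair the Atxn7l3-/- library was the lower one. In mESCs Lum had 0 and 2 counts in the WT libraries (0 and 0.0411 CPM) and 27, 30 and 6 counts in the Atxn7l3-/- libraries (0.693, 0.641 and 0.135 CPM), which did not overlap. The ratio from counts pooled over libraries was 24.5 with a counting interval of 6.5 to 206, and edgeR's adjusted p was 0.0615, or 0.0259 without Atxn7l3-/- replicate 3.

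In the Atxn7l3-/- MEFs the neighbours Dcn and Lum were unlike, Dcn lying above every WT library in all 3 and Lum below 1 CPM in 2 of the 3. Further along the same stretch lie Kera (97606879 to 97613692) and Epyc (97644068 to 97682454), which encode 2 more proteoglycans of the family. Kera was counted at 1.37 CPM in WT MEF replicate 2 and at 0 in every other MEF library. Epyc stood at 0.0814, 13.3 and 0.17 CPM in the WT and 0.715, 2.68 and 0.687 CPM in the Atxn7l3-/- MEFs. Replicate 2 was the highest WT library for all 4 of these genes.

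Of the other small leucine-rich proteoglycans, 12 were tested in MEFs, with 1 called higher, 2 called lower and a median log2 fold change of -1.89. Prelp, which anchors basement membranes to collagen, fell from 214 ± 131 to 4.44 ± 5.75 CPM (SD, n = 3 each, edgeR adjusted p = 0.0354). Omd, osteomodulin, fell by 4.11 on the log2 scale (edgeR adjusted p = 0.0414), and Nyx, nyctalopin, rose from 0.159 to 2.29 CPM (edgeR adjusted p = 0.0144). In mESCs 9 were tested, with 2 called higher, none lower and a median of 1.88: Bgn, biglycan, the closest relative of decorin, rose from 8.34 ± 4.07 (SD, n = 2) to 29.7 ± 8.15 CPM (SD, n = 3, edgeR adjusted p = 0.0346), and Aspn, asporin, from 0.0308 CPM, below the floor, to 0.622 CPM (edgeR adjusted p = 0.0407).

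Pdgfra (ENSMUSG00000029231, chromosome 5, 75152292 to 75198215, plus strand) encodes the receptor that marks mesenchymal progenitors. Its mean per kb was the lowest of the 10 in WT MEFs, although another of the 10 was lower in each single library (Lum in replicates 1 and 3, Twist1 in replicate 2). It stood at 15.0, 98.9 and 7.87 CPM in the WT and at 123, 245 and 52.5 CPM in the Atxn7l3-/- MEFs. The groups overlapped, since WT replicate 2 was above Atxn7l3-/- replicate 3. In each same-numbered pair the Atxn7l3-/- library was the higher one. The estimate (log2) was 1.78 (standard error 1.00, edgeR adjusted p = 0.256) without and 2.35 (standard error 0.40, edgeR adjusted p = 0.0276) with the replicate block, and 2.37 (edgeR adjusted p = 0.0337) with the block and a GC correction. On the opposite strand 2 transcripts overlap the gene, and a miRNA lies within it. In mESCs the level was 2.93 and 2.38 CPM in WT and 3.72, 2.44 and 1.77 CPM in Atxn7l3-/- libraries, and the log2 fold change was 0.04 (standard error 0.48, edgeR adjusted p = 0.965).

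Pdgfrb (ENSMUSG00000024620, chromosome 18, 61045150 to 61085061, plus strand) encodes the receptor of pericytes and vascular smooth muscle. WT MEFs held 209.7, 479 and 354 CPM. The Atxn7l3-/- MEFs held 27.2, 2.04 and 277 CPM, so that replicate 3 lay within the WT range and replicates 1 and 2 at 7.83% and 0.587% of the WT mean. Its log2 fold change was -1.74 (standard error 1.39, edgeR adjusted p = 0.409), and -4.58 (edgeR adjusted p = 0.0557) without replicate 3. In mESCs Pdgfrb stood at 6.15 and 4.89 CPM in WT and 4.28, 8.13 and 5.23 CPM in Atxn7l3-/- libraries, with overlapping groups and an estimate of 0.13 (log2, standard error 0.41, edgeR adjusted p = 0.855). In Atxn7l3-/- MEF replicate 2, Pdgfra (245 CPM) was at its highest and Pdgfrb (2.04 CPM) at its lowest of the MEF libraries.

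The PDGF ligands Pdgfa, Pdgfb, Pdgfc and Pdgfd and the receptor-like gene Pdgfrl were all tested in both cell types. In MEFs all 5 had negative log2 fold changes (median -1.5), and Pdgfb, the ligand that binds both receptors, was called, falling from 16.1 ± 9.04 to 1.41 ± 0.581 CPM (SD, n = 3 each, log2 fold change -3.53, edgeR adjusted p = 0.0270). With the replicate block Pdgfa, the ligand specific to Pdgfra, was called as well (log2 fold change -1.52, edgeR adjusted p = 0.023). In mESCs none was called, and the median was 0.96.

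Thy1 (ENSMUSG00000032011, chromosome 9, 44043384 to 44048579, plus strand) encodes the GPI-anchored surface glycoprotein CD90. It stood at 152, 315 and 413 CPM in WT and 211, 118 and 159 CPM in Atxn7l3-/- MEFs, and the groups overlapped through WT replicate 1. The means were 293 ± 132 and 163 ± 46.4 CPM (SD, n = 3 each), with an estimate of -0.86 (log2, standard error 0.39, edgeR adjusted p = 0.178). In mESCs it stood at 3.98 and 5.04 CPM in WT and 6.00, 7.27 and 3.71 CPM in Atxn7l3-/- libraries (log2 fold change 0.37, standard error 0.42, edgeR adjusted p = 0.581).

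Of the other fibroblast surface markers, 15 of 16 were tested in MEFs, with 3 called higher, 1 called lower and a median log2 fold change of -0.51. Dpp4 (CD26), a protease on the surface of fibroblast progenitors, rose from 0.627 ± 0.457 to 166 ± 115 CPM (SD, n = 3 each, edgeR adjusted p = 0.00752). S100a4, a calcium-binding protein used as a fibroblast marker, rose by 2.79 on the log2 scale (edgeR adjusted p = 0.0293), and Eng, endoglin, a TGF-beta coreceptor, fell from 29.8 ± 10.9 to 1.64 ± 0.591 CPM (SD, n = 3 each, edgeR adjusted p = 0.00922). In mESCs 14 were tested, with 2 called higher (S100a4 by 2.69 and Mcam by 1.24 on the log2 scale, edgeR adjusted p = 0.0427 and 0.0496), 5 called lower and a median of 0.22. Cd34, a sialomucin of progenitor cells, was at 1.52 CPM in WT and below the floor in Atxn7l3-/- mESCs (edgeR adjusted p = 0.0211), and Nt5e, the ectonucleotidase CD73, fell by 2.80 on the log2 scale there (edgeR adjusted p = 0.0211).

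Vim (ENSMUSG00000026728, chromosome 2, 13573927 to 13582826, plus strand) encodes vimentin. Its level was 3124, 3881 and 5949 CPM in WT MEFs and 1439, 1342 and 2825 CPM in Atxn7l3-/- MEFs. All 3 Atxn7l3-/- libraries were below all WT libraries, at 33.3%, 31.1% and 65.4% of the WT mean, and the WT mean was 2.31 times the Atxn7l3-/- mean. The estimate for Vim (log2) was -1.21 (standard error 0.45, edgeR adjusted p = 0.121), -1.26 with the block (edgeR adjusted p = 0.0569) and -1.20 by DESeq2 (adjusted p = 0.0448), the 1 alternative that called it. In mESCs it stood at 33.4 and 68.1 CPM in WT and 37.9, 48.8 and 41.0 CPM in Atxn7l3-/- libraries, all 3 of them within the WT range (log2 fold change -0.20, standard error 0.30, edgeR adjusted p = 0.686).

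Among 8 other genes of intermediate filaments and the lamina, 2 were called lower and none higher in MEFs (median log2 fold change -1.06). Gfap, the filament of astrocytes and some Schwann cells, fell from 14.7 ± 8.41 to 0.161 ± 0.113 CPM, and Synm, synemin, a partner of vimentin and desmin, from 18.4 ± 6.02 to 3.79 ± 2.06 CPM (SD, n = 3 each, edgeR adjusted p = 0.0118 and 0.0414). In mESCs Lmnb1, lamin B1, was the 1 gene called, falling by 0.82 on the log2 scale (edgeR adjusted p = 0.0493), and the median was -0.62.

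Twist1 (ENSMUSG00000035799, chromosome 12, 33957671 to 33959829, plus strand) encodes a basic helix-loop-helix factor of cranial and limb mesenchyme. It stood at 34.9, 76.6 and 52.3 CPM in WT MEFs and at 32.4, 43.2 and 33.1 CPM in Atxn7l3-/- MEFs. The groups overlapped through WT replicate 1 and Atxn7l3-/- replicate 2, and in each same-numbered pair the Atxn7l3-/- library was the lower one. Fitted over all MEF libraries, the log2 fold change was -0.60 (standard error 0.31, edgeR adjusted p = 0.223), and it turned positive after a GC correction (0.29). In mESCs it stood at 1.07 and 0.884 CPM in WT and 3.33, 1.39 and 2.63 CPM in Atxn7l3-/- libraries, which did not overlap (log2 fold change 1.38, standard error 0.56, edgeR adjusted p = 0.150).

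Prrx1 (ENSMUSG00000026586, chromosome 1, 163245119 to 163313710, minus strand) encodes a homeobox factor of limb and craniofacial mesenchyme. The WT MEFs lay close together, at 465, 571 and 484 CPM, while the Atxn7l3-/- MEFs spread from 6.15 CPM in replicate 2 over 27.9 CPM in replicate 1 to 339.9 CPM in replicate 3. All 3 lay below the WT libraries, at 1.21%, 5.50% and 67.1% of the WT mean. The fitted change (log2) was -2.0 (standard error 1.26, edgeR adjusted p = 0.303), -3.85 with the block (edgeR adjusted p = 0.123) and -4.91 without replicate 3, where it was called (edgeR adjusted p = 0.0259). In mESCs it stood at 0.0952 and 0.575 CPM in WT and 1.82, 4.51 and 1.59 CPM in Atxn7l3-/- libraries, which did not overlap (log2 fold change 3.02, standard error 0.88, edgeR adjusted p = 0.0752). The Atxn7l3-/- mESC mean of 2.64 CPM was 0.522% of the WT MEF mean. An antisense transcript and 2 transcripts on the same strand overlap Prrx1.

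The other factors of epithelial-mesenchymal transition, Snai1, Snai2, Zeb1, Zeb2, Twist2 and Tcf4, were not called in either cell type. In MEFs 5 of the 6 had negative log2 fold changes (median -1.55), from -2.08 for Snai1 (edgeR adjusted p = 0.175) to -0.24 for Zeb1 (edgeR adjusted p = 0.560), and Zeb2 stood at 0.03 (edgeR adjusted p = 0.947). In mESCs 5 were tested, with a median of -0.50. Of 24 further mesenchymal transcription factors, 22 were tested in MEFs, with 20 negative and 2 positive log2 fold changes and a median of -2.17, while 2 were called lower and 2 higher. The 2 that rose were Tcf21, a factor of epicardial and visceral mesenchyme, from 0.608 ± 0.381 to 258 ± 124 CPM (SD, n = 3 each, edgeR adjusted p = 0.00570), and Tbx18, a factor of epicardium and somites, from 16.7 ± 5.80 to 148 ± 53.2 CPM (SD, n = 3 each, edgeR adjusted p = 0.0118). Alx4, a homeobox factor of limb and craniofacial mesenchyme, fell from 16.4 ± 4.22 to 0.348 ± 0.293 CPM (SD, n = 3 each, edgeR adjusted p = 0.0183). Tbx15, a factor of dermal and limb mesenchyme, fell by 3.66 on the log2 scale (edgeR adjusted p = 0.0464), a call lost with the replicate block (adjusted p = 0.0698). None of the 16 tested in mESCs was called (median 0.65).

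**Figure D3:**
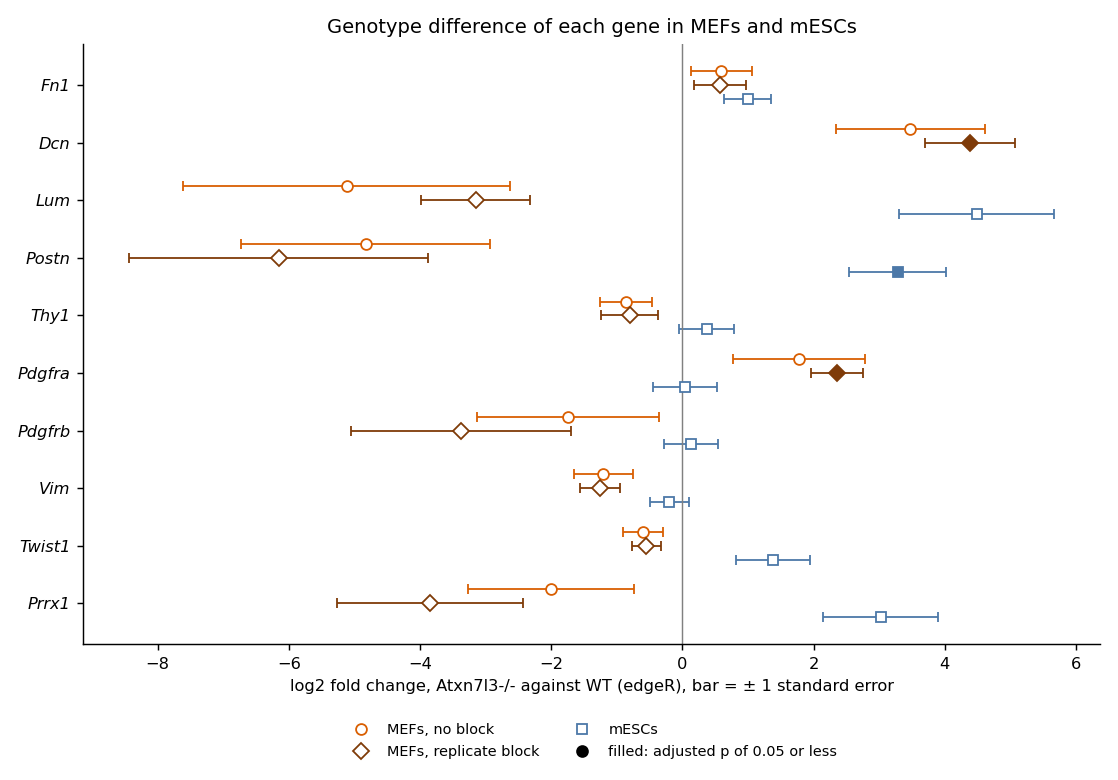
Log2 fold change of Atxn7l3-/- against WT with 1 standard error for each of the 10 genes, from edgeR, in MEFs without the replicate block (orange circles), in MEFs with it (brown diamonds) and in mESCs (blue squares), filled where the adjusted p is 0.05 or less. The filled points are Dcn (4.38) and Pdgfra (2.35) with the block and Postn (3.28) in mESCs, and Dcn has no point in mESCs, where it was not tested.

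Whether genotype acted differently in the 2 cell types was tested by the interaction term in 1 fit of all 11 libraries. Atxn7l3 itself, whose RNA fell less in MEFs than in mESCs, was called at 5.97 (standard error 0.58, edgeR adjusted p = 0.000666). The loss of its RNA was thus unlike in the 2 genotype comparisons. The difference was called for Twist1 alone among the 10, at -1.92 (standard error 0.56, edgeR adjusted p = 0.0494), against 6.15% of all genes called in the positive and 5.27% in the negative direction. With the replicate block its adjusted p was 0.0699 (edgeR), and Prrx1 (-7.23, edgeR adjusted p = 0.0496) and Lum (-8.05, edgeR adjusted p = 0.0250) were called instead, against 3.97% of all genes called negative with the block. Without the block the difference was -8.09 for Postn (standard error 2.42, edgeR adjusted p = 0.0543), -5.01 for Prrx1 (standard error 1.83, edgeR adjusted p = 0.0953) and -9.54 for Lum (standard error 3.96, edgeR adjusted p = 0.132). The other 6 genes had adjusted p between 0.182 for Thy1 and 0.750 for Dcn (edgeR), and 8 of the 10 differences were negative. The comparison of WT cells and the genotype comparisons share the WT libraries.

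Other genes of the fibroblast matrix, 21 collagens, fibulins and related genes, gave 0 calls in MEFs, with 16 negative and 5 positive log2 fold changes and a median of -0.94. Their summed level was 41115, 87249 and 53811 CPM in WT and 56140, 54144 and 69777 CPM in Atxn7l3-/- MEFs, with overlapping groups. In mESCs 6 of the 21 rose and none fell, 19 had positive log2 fold changes, and the median was 1.42. Col6a1 rose from 1.15 ± 0.901 (SD, n = 2) to 7.90 ± 2.61 CPM (SD, n = 3, edgeR adjusted p = 0.0422), and Col1a1, the main chain of type I collagen, from 28.6 ± 26.8 (SD, n = 2) to 160 ± 25.9 CPM (SD, n = 3, edgeR adjusted p = 0.0469). The summed matrix level was 1926 and 1509 CPM in WT and 3060, 3348 and 2946 CPM in Atxn7l3-/- mESCs, all of them below every MEF library. The mESC lines had been passaged on feeder cells, which are fibroblasts as a rule, and the part of feeder RNA in the mESC levels of the matrix genes and of the 10 genes was not tested.

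Markers of other cell types that an embryo culture could hold moved with genotype in the MEFs. Of 7 mesothelial markers, 6 rose (median log2 fold change 7.76), among them Lrrn4, from 3.28 ± 1.83 to 1962 ± 499 CPM, and Muc16, from 0.544 ± 0.327 to 221 ± 74.2 CPM (SD, n = 3 each, edgeR adjusted p = 0.00263 for both). Their sum was 19.4, 49.1 and 37.5 CPM in WT and 9032, 7460 and 6101 CPM in Atxn7l3-/- MEFs. Epithelial markers (4 of 8 tested) had 2 called higher, Krt18 and Krt14, the latter not with the block (edgeR adjusted p = 0.0532), and summed to 1.97 to 3.59 CPM in WT and 8.19 to 36.0 CPM in Atxn7l3-/- libraries. The macrophage markers gave 0 calls among 8 tested, and their sum spread from 837 CPM in Atxn7l3-/- replicate 3 to 6136 CPM in replicate 1, beside 518 to 1042 CPM in WT. Endothelial markers also gave 0 calls (6 tested).

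Lower in the Atxn7l3-/- MEFs were Foxd3 and Sox10, 2 of 4 Schwann cell and neural crest markers (edgeR adjusted p = 0.0498 and 0.0168), whose list summed to 13.6 to 47.4 CPM in WT and 1.25 to 7.76 CPM in Atxn7l3-/- libraries. Foxd3 had no count in any Atxn7l3-/- MEF library. Of the 5 smooth muscle markers, Myh11, a smooth muscle myosin, fell from 78.5 ± 25.9 to 4.0 ± 1.81 CPM (SD, n = 3 each, edgeR adjusted p = 0.00933), and the list summed to 8545, 9879 and 14754 CPM in WT and 1979, 1267 and 5476 CPM in Atxn7l3-/- libraries. Of 3 cartilage markers tested, Col2a1 fell from 434 ± 233 to 1.88 ± 1.09 CPM (SD, n = 3 each, edgeR adjusted p = 0.00827). Skeletal muscle markers (3 tested) gave 0 calls, with sums of 7.30 to 42.5 CPM in WT and 0.93 to 2.44 CPM in Atxn7l3-/- libraries. Atxn7l3-/- replicate 3, nearest to WT for Prrx1, Pdgfrb, Postn and Vim, also had the highest smooth muscle sum of its group. The part of these other cell types in the levels of the 10 genes was not tested.

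**Figure D4:**
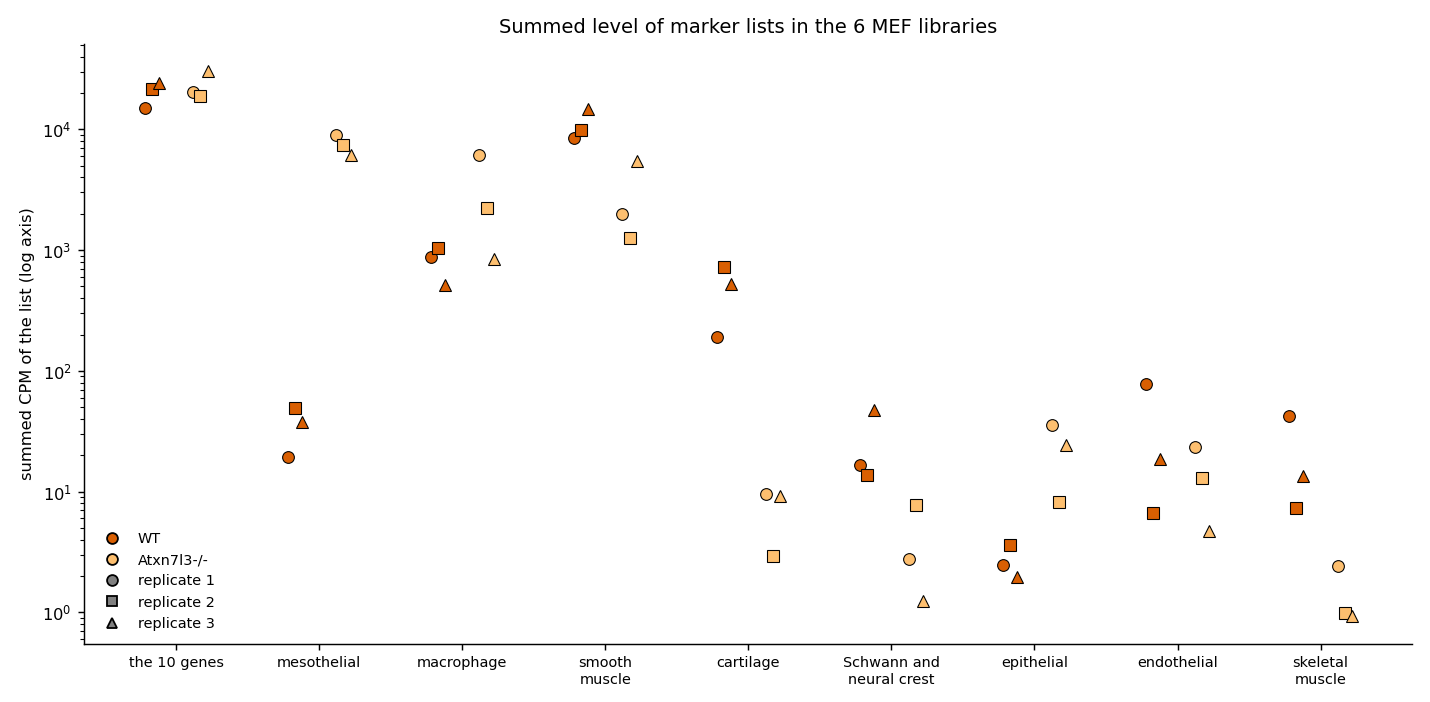
Summed CPM (log axis) of the 10 genes and of 8 marker lists in each of the 6 MEF libraries. The mesothelial sum is 6101 to 9032 CPM in the Atxn7l3-/- and 19.4 to 49.1 CPM in the WT libraries. The sums of the 10 genes overlap, at 18898 to 30275 and 15110 to 24240 CPM, and Fn1 makes up 49.4% to 84.9% of them.

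In mESCs the same lists gave few calls: Tie1 among the endothelial markers, Foxd3 among the neural crest markers, Sox7 among the primitive endoderm markers and the Y-linked Kdm5d were lower, Epcam among the epithelial markers was higher, and none of 8 pluripotency, 5 mesothelial, 5 smooth muscle, 3 cartilage, 3 macrophage or 2 skeletal muscle markers tested was called. The smooth muscle markers, some of which fibroblasts also express, were positive for 5 of 5 with a median log2 fold change of 2.20. In MEFs the primitive endoderm list, whose factors are also used in visceral mesoderm, had Gata4 (2.21 ± 2.22 to 84.6 ± 27.1 CPM, SD, n = 3 each, edgeR adjusted p = 0.0177) and Gata6 higher and Sox7 lower, and the pluripotency list had Tfcp2l1 higher (edgeR adjusted p = 0.00591). None of the 5 sex genes was called in MEFs.

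Over all 11 libraries, the genes whose log2 levels were most like the mean standardised profile of the 10 were Cys1 (Pearson r = 0.992), Vasn (0.991), Rab13 (0.991), Tgfb3 (0.990) and Bgn (0.990), out of 19302 other genes. These r describe 11 points in 2 separate clusters, the MEF and the mESC libraries, which share the difference between the cell types.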

How the data were processed

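Poly(A)+ RNA of 5 mESC and 6 MEF libraries, made with the TruSeq Stranded mRNA kit, was analysed from 1 deposited table per cell type. The submitters' processing notes name bcl2fastq 2.17.1.14, cutadapt 1.10, STAR 2.5.3a, HTSeq 0.6.1p1, DESeq2 1.16.1 and mm10. The gene annotation and the strand setting are not given in the sources used here. The authors deposited raw read counts per gene and 2 forms of normalized signal, namely the count after division by its library's DESeq2 size factor, and that value per kb of median transcript length. The deposited fold changes and p-values, the authors' own tests of Atxn7l3-/- against WT, and an unnamed column with the authors' median of the MEF values per kb were not used. The study excluded 1 further WT mESC dataset, which was not analysed here.

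Raw counts were tested with edgeR 4.0.16 (R 4.3.3) by its quasi-likelihood test after filterByExpr and TMM, with Benjamini-Hochberg adjustment over the 17800 (mESCs) or 15958 (MEFs) genes tested. The cell types were compared in 1 fit of 11 libraries over 19312 genes. The standard error is the log2 fold change divided by the root of the test's F. Totals of 34515342 to 49602605 counts set the floor of 3 counts at 0.0605 to 0.0869 CPM. Counting intervals of ratios are exact and cover counting error only. The replicate numbers come from the labels, and same-numbered libraries are different embryos or lines. In MEFs the deviations of same-numbered libraries from their group means correlated with r of 0.473, 0.161 and 0.24 across genes, all above 0.1, so blocked values are given there. Promoter windows are RefSeq's on GRCm38.p6. Tables and figures were made with Python 3.11.15, pandas 2.3.3, numpy 2.4.6, scipy 1.17.1 and matplotlib 3.10.9.

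The 10 genes, the other gene lists and the tests were chosen with earlier results of these data known. All 10 genes are named, each with its CPM in every library. From each other list the text names up to 2 genes with the largest called rise and up to 2 with the largest called fall per cell type, or a list of 6 or fewer genes in full. Named in addition are Atxn7l3, the 5 genes most like the mean profile of the 10, and Kera and Epyc as neighbours of Dcn and Lum, which were chosen after their values were seen. As alternatives, RLE or upper-quartile scaling, no filter on low counts or a minimum of 10 counts in each library, the Wald test of DESeq2 1.42.0, the replicate block, a GC correction, both together, the study's thresholds, 1 fit of all libraries, each library left out in turn and, chosen after seeing the data, Y-linked counts as a factor were tried. Some genes of the lists are not reported here. The fits were tested on simulated data. In MEFs the fit called 8 of 95 genes simulated with a log2 change of 1.5 and 55 of 97 with one of 3. In mESCs it called 31 of 94 and 73 of 95. False calls numbered 1 in MEFs and 7 in mESCs.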

Additional observations from a re-analysis of the deposited data

Results flagged for a closer look

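The effect of genotype on Twist1 differed between the cell types, by a difference of log2 fold changes of -1.92 (MEFs minus mESCs, standard error 0.56, edgeR interaction test over 19312 genes with an adjusted p of 0.0494). Twist1 stood at 34.9, 76.6 and 52.3 CPM in WT and 32.4, 43.2 and 33.1 CPM in Atxn7l3-/- MEFs, and at 1.07 and 0.884 CPM in WT and 3.33, 1.39 and 2.63 CPM in Atxn7l3-/- mESCs. Neither change was called within its own cell type. The difference missed the threshold with the replicate block (-1.69, edgeR adjusted p = 0.0699), with the GC correction (-0.83, edgeR adjusted p = 0.353), with both (-0.79, edgeR adjusted p = 0.269) and without a filter (edgeR adjusted p = 0.0591), and in 9 of the 11 fits that left out 1 library. It held without WT MEF replicate 1 (edgeR adjusted p = 0.0341) and without Atxn7l3-/- mESC replicate 2 (edgeR adjusted p = 0.0232). Groups of 2 or 3 libraries are too small for a test of single outlying libraries. In the same interaction test Atxn7l3 itself, whose RNA fell less in MEFs than in mESCs, was called at 5.97 (standard error 0.58, edgeR adjusted p = 0.000666).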

How the results depend on the processing

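Calls over all genes are given in brackets. The number of the 10 genes called higher in Atxn7l3-/- MEFs was 0 (800 of 15958) and became 2 with the replicate block (877). It was 1 with the block and GC correction (784), by DESeq2 (1616 of 18998) and in 1 fit of all libraries (1512 of 19312). With 1 library left out it was 0, or 1 without WT replicate 2 (471 of 16553). The number called lower was 0 (701 of 15958) and 2 by DESeq2 (2349 of 18998). With 1 library left out it was 0, or 2 without Atxn7l3-/- replicate 3 (1049 of 16769). In mESCs 1 gene was called higher (548 of 17800), 4 without a filter (1390 of 31107) and 0 in 1 fit of all libraries (144 of 19312). The number was 3 with the block (720 of 17800), with the block and GC correction (544 of 17800) and by DESeq2 (1713 of 18446). With 1 Atxn7l3-/- library left out it was 0 without replicate 1 (0 of 17530) or replicate 2 (1061 of 17495). It was 2 without replicate 3 (767 of 17551). Same-numbered mESC libraries share only a number (r of 0.008 and -0.172 across genes). With the replicate block Postn, Prrx1 and Lum were called there (edgeR adjusted p = 0.00747, 0.0126 and 0.0157), where 720 of all 17800 genes were called higher and 728 lower. In WT cells the number called was 10 with the block (4451 of 19312) and under every alternative that tested all 10. With 1 MEF or 1 Atxn7l3-/- mESC library left out it was 10, where 4594 to 5263 of all genes were called higher. With 1 WT mESC library left out all 10 log2 fold changes stayed positive, but 1 remaining WT mESC library is too few to judge the calls. A filter of 10 counts in every library tested 7 genes and DESeq2 gave an adjusted p for 8, all of them called. For the difference between cell types, 1 gene was called negative (1017 of all 19312 genes), and 0 without a filter (816 of 26398) or with the GC correction (683 of 19312). The number was 2 with 10 counts in every library (1006 of 11887), with the block (766 of 19312) or by DESeq2 (2228 of 18564). With 1 MEF or 1 Atxn7l3-/- mESC library left out, 0 to 3 were called negative and 0 to 1 positive. The 3 were called without Atxn7l3-/- MEF replicate 3 (1613 of 19285), and the 1 without WT MEF replicate 2 (1132 of 19183).

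Directions changed for small or library-bound values. Twist1 in MEFs turned to 0.29 with the GC correction and 0.26 with the block as well, and Lum in MEFs ranged from -8.26 to 1.12 with 1 library left out. In mESCs, Y-linked counts as a factor, which sets Atxn7l3-/- replicate 3 alone against WT, turned Thy1 to -0.20, Pdgfra to -0.51 and Pdgfrb to -0.0039. The GC correction gave -0.0015 for Pdgfra and -0.017 for Pdgfrb, and Pdgfra was -0.0101 with upper-quartile scaling and -0.0105 in 1 fit of all libraries. With 1 library left out, Pdgfra ranged from -0.30 to 0.25, Pdgfrb from -0.14 to 0.31 and Vim from -0.63 to 0.38 there. The difference between cell types for Fn1 was 0.18 with the block and GC correction and ranged from -0.76 to 0.00073 with 1 library left out, and that for Dcn from -2.37 to 3.64. The cause of these changes was not tested.

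Over all genes edgeR called 800 higher and 701 lower in MEFs, DESeq2 1616 and 2349, and edgeR with Y-linked counts as a factor 143 and 110. In mESCs edgeR called 548 and 690 and DESeq2 1713 and 1711. Upper-quartile scaling moved the median of all genes in MEFs from -0.06 to -0.17 and in WT MEFs against WT mESCs from -0.01 to -0.12. Depth limits Dcn and Lum in mESCs, which have 0 to 30 counts a library, and groups of 2 and 3 libraries limit every test.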
